A study of Mus musculus with 12 samples.

Results

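All-trans retinoic acid (RA), given to cultured mouse CD8 T cells in addition to IL-2 and IL-15, was compared with IL-2 and IL-15 alone. The comparison uses 6 of the 12 RNA-seq libraries of the series, chosen by their titles: 3 of IL-2 + IL-15 + RA, called RA libraries here, and 3 of IL-2 + IL-15, called control libraries. The cells came from the spleen of C57BL/6 mice and were harvested at day 7. No allele was altered in any group, every culture held both interleukins, and the remaining 6 libraries (IL-2 + IL-15 + TGFb and IL-2 + IL-15 + TGFb + RA) entered the statistical fit and 1 comparison of the RA effect with and without TGFb, transforming growth factor beta. The labels give no dose, do not say how the cells were purified or activated, and call the samples biological replicates without saying whether each is 1 animal. The p-values therefore cover only how far these samples varied, which may in part be technical.

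RA is the active metabolite of vitamin A. It enters the nucleus and binds the receptors RARα, RARβ and RARγ, which sit on DNA as partners of RXR receptors and switch between holding co-repressors and recruiting co-activators. In the gut, dendritic cells and epithelial cells make RA from dietary vitamin A, and T cells that meet it acquire the chemokine receptor CCR9 and the integrin α4β7, which guide them to the intestine. IL-2 and IL-15 signal through a shared receptor chain and keep activated CD8 T cells alive, dividing and armed.

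Levels are counts relative to library size (CPM), scaled between libraries by TMM, a factor that balances the bulk of genes. Changes are log2 fold changes ± SE of RA against control, so that 1 is a doubling and a negative value is lower with RA. A gene is said to have risen or fallen if its adjusted p was under 0.05 by edgeR's quasi-likelihood test, adjusted by Benjamini-Hochberg over all 14009 genes tested. All adjusted p-values below come from that test, with n = 3 libraries in each group. Some genes share exon bases with another annotated gene, and their reads are uncertain: on the same strand Adora3 (20.9%), Ifng (25.9%), Itgam (68.7%), Klrb1c (13.9%) and S100a4 (51.7%), and on the opposite strand Ccr9 (19%), Cd274 (14.1%), Csf2 (12%), Ctsb (12.8%), Gpr15 (12.5%), Gzmf (16.4%), Itgad (12.4%) and St3gal6 (26%). The kit was stranded, but the labels and processing notes do not state whether reads were assigned by strand. It is therefore unknown whether reads of opposite strands were kept apart.

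The 6 libraries held 21359384 to 33477037 counts, and the first principal component of their log2 CPM carried 65% of the variance and put the controls between -36.2 and -33.6 and the RA libraries between 28.9 and 39.7. RA replicate 3 stood apart from the other RA libraries on the second component (-30.2 against 22.4 and 3), and over a subset of 472 called genes its shift was a median 0.79 of theirs. IL-2 + IL-15 replicate 1 stood apart among the controls (17.4 against -5.6 and -7). Genes of CD8 T cell identity summed to 9510 to 10300 CPM in the controls and 9830 to 10100 CPM with RA, and Cd8a, a chain of the co-receptor, was at 989, 1300 and 1280 CPM in the controls and 858, 974 and 1190 CPM with RA (-0.24 ± 0.11, adjusted p = 0.133). Cd8a was called lower without RA replicate 3 (-0.38), without IL-2 + IL-15 replicate 1 (-0.35) and without both of these libraries (-0.48).

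RA changed 3740 genes, 26.7% of those tested: 1731 rose (12.4%) and 2009 fell (14.3%). Without both libraries that stand apart, 2287 rose and 2399 fell. With only the 6 compared libraries in the fit, 2577 genes were called, of which 1157 rose and 1420 fell. The changes were mostly small, with a median of 0.38 among the genes that rose and -0.59 among those that fell. At least 2-fold changes were measured for 343 genes that rose and 534 that fell, at least 8-fold changes for 63 and 59, and at least 16-fold changes for 32 and 29. In 3529 of the 3740 genes (94.4%) the RA and control libraries did not overlap, and over all tested genes the groups were separate with RA higher in 17.3% and with RA lower in 18.7%. The median over all tested genes was -0.001, so the scaling placed the bulk of genes at no change.

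**Figure D1:**
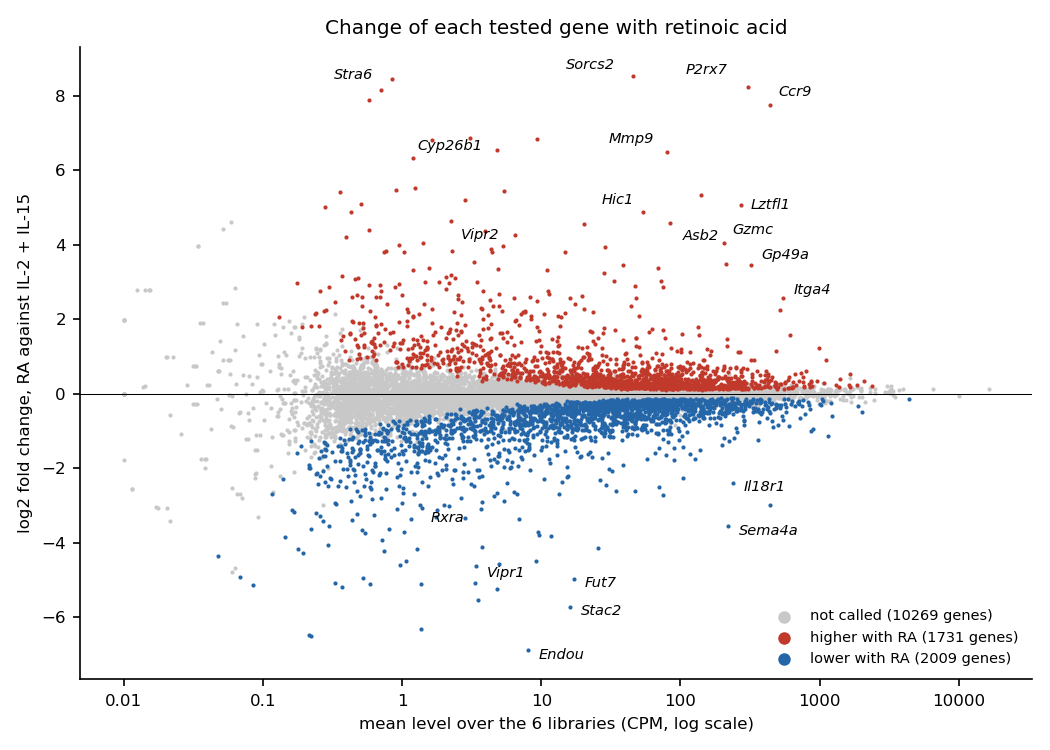
Each point is 1 of 14009 tested genes, with its mean level over the 6 libraries on the horizontal axis (CPM, log scale) and its log2 fold change on the vertical axis; red genes rose, blue genes fell and grey genes were not called. A small set, among them P2rx7 (8.24), Ccr9 (7.76) and Sorcs2 (8.54), lies far above the 1731 genes that rose, which have a median of 0.38.

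The retinoid system itself split by role. Cyp26b1 and Dhrs3, which act on retinoids inside the cell, rose steeply, while the receptor genes Rxra, Rarg and Rara fell and Rxrb was not called. Of 33 listed retinoid genes 18 passed the filter on low counts, and of these 8 rose and 3 fell, with a median of 0.13 over the 18. Their called share was 61.1%, against 26.7% of all tested genes. The 15 that did not pass include Rarb, which had at most 1 count in any of the 6 libraries, and Rxrg and Crabp1, a receptor and a carrier protein.

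Among the genes that inactivate retinoids, Cyp26b1, a cytochrome P450 that oxidises RA, was at 0.113, 0.163 and 0.0307 CPM in the controls and 6.78, 5.87 and 15.9 CPM with RA (6.55 ± 0.53, adjusted p = 1.3e-06). Dhrs3, which reduces retinaldehyde back to retinol, was at 0.225, 0.122 and 0.338 CPM against 12.9, 8.72 and 10.3 CPM (5.45 ± 0.28, adjusted p = 1.6e-08). For both genes every RA library lay above every control, and RA replicate 3 was the highest for Cyp26b1. Stra6, a membrane receptor that takes up retinol from its carrier in blood, had 0 counts in all 3 controls and 1.91, 1.96 and 1.19 CPM with RA. Set against the limit of 3 counts over the whole control group, it was at least 47.7-fold higher.

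Those 3 receptor genes moved the other way. Rxra was at 6.76, 6.39 and 6.72 CPM in the controls and 0.592, 1.02 and 0.666 CPM with RA (-3.10 ± 0.24, adjusted p = 9.8e-07). Rarg, at 30.4, 29.7 and 28.3 CPM in the controls, was at 9.19, 9.25 and 9.61 CPM with RA (-1.66 ± 0.06, adjusted p = 8.1e-10). Rara was at 88.6, 95.7 and 94 CPM against 50.1, 41.3 and 43.4 CPM (-1.05 ± 0.07, adjusted p = 4.1e-07). The groups did not overlap in any of these 3 genes. Rxrb, the other expressed RXR gene, was at 127, 131 and 123 CPM in the controls and 128, 126 and 126 CPM with RA, and the groups overlapped.

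Genes known as RA targets outside retinoid metabolism rose as well. Hic1, a transcriptional repressor, went from 3.87, 3.17 and 3.59 CPM to 133, 99.6 and 79.1 CPM (4.87 ± 0.19, adjusted p = 7.3e-10). Asb2, part of a ubiquitin ligase, rose by 4.58 ± 0.20, and Nrip1, a co-repressor that binds ligand-loaded nuclear receptors, rose by 1.71 ± 0.09 from 30.3, 36.2 and 38.2 to 123, 106 and 114 CPM. Tgm2, a transglutaminase that was singled out after its values were seen, was at 1.88, 5.74 and 3.16 CPM in the controls and 36.5, 69.4 and 55.9 CPM with RA (3.93 ± 0.34). In each of these genes all RA libraries were above all controls.

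The bases just before the start sites of Hic1, Nrip1 and the steeply raised receptor genes P2rx7 and Ccr9 are printed because RAR and RXR pairs bind repeats of a half-site, a motif of 6 bases. The sequences are the 250 bases before the RefSeq start (build GRCm38.p6), on the strand of the gene, with matches to half-sites on either strand in capitals. The letters searched were the consensus AGGTCA, its variant with a first G, GGGTCA, its variant with T for the middle G, AGTTCA, and the variant with both, GGTTCA. P2rx7 lies at chr5:122643677-122643926 on the plus strand, Hic1 at chr11:75170256-75170505 on the minus strand, Nrip1 at chr16:76373828-76374077 on the minus strand and Ccr9 at chr9:123766961-123767210 on the plus strand.
P2rx7: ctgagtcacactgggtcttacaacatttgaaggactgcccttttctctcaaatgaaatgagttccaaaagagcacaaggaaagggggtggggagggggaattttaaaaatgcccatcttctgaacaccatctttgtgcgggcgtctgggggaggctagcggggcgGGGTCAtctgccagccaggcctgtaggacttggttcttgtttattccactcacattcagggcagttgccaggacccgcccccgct
Hic1: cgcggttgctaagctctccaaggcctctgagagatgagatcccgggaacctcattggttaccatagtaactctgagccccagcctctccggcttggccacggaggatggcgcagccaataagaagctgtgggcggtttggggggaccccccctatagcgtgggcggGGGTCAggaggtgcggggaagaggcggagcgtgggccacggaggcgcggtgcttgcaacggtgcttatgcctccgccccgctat
Nrip1: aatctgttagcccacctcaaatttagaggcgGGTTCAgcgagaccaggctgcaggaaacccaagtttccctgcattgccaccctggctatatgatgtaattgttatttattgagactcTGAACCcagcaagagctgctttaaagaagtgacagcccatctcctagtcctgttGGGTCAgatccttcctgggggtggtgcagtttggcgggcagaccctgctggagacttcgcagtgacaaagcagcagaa
Ccr9: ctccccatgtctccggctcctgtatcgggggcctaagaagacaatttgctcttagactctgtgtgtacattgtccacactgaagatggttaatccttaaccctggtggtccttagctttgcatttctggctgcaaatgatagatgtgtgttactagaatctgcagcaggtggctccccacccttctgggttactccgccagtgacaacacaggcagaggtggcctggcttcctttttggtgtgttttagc

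P2rx7 and Hic1 each hold 1 match, Nrip1 holds 3 and Ccr9 holds 0. Within 250 bases before to 50 after the start, any of the 4 half-sites was found in 37.1% of the 9600 tested genes with a RefSeq promoter, in 36.9% of those that rose, in 38.2% of those that fell and in 38.4% of those that rose at least 2-fold. The half-site AGGTCA alone was in 12.1% of all, 13.4% of those that rose and 15.1% of those that rose at least 2-fold. Direct repeats of these half-sites spaced by 1, 2 or 5 bases were in 23, 7 and 3 of the 9600 promoters. They were in 3, 1 and 0 of the 1293 promoters of genes that rose. Of the 1469 promoters of genes that fell they were in 3, 0 and 0. Such counts are too few to compare the groups. A match is a run of letters and not a measured binding site.

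Ccr9 was among the largest increases (7.76 ± 0.19), Itga4 rose by 2.58 ± 0.14 and Itgb7 by 0.29 ± 0.06, while the colon receptor gene Gpr15 fell. Ccr9, the receptor for a chemokine of the small intestine, was at 3.04, 3.95 and 5 CPM in the controls and 743, 825 and 1080 CPM with RA (adjusted p = 5.6e-12). Itga4, the α4 chain, was at 140, 154 and 176 CPM against 979, 783 and 1060 CPM (adjusted p = 2.3e-08), and its partner Itgb7 was at 924, 984 and 1020 CPM against 1210, 1140 and 1220 CPM (adjusted p = 0.00161). The groups were separate for all 3 genes, and the β7 chain was already abundant without RA.

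Gpr15, a receptor that directs T cells to the colon, did not follow Ccr9: it fell from 1.35, 1.59 and 1.78 CPM to 0.364, 0.338 and 0.333 CPM (-2.18 ± 0.38, adjusted p = 0.000815). Of 17 tested chemoattractant receptors 6 rose and 8 fell (82.4% called, against 26.7% of all tested genes). Besides Ccr9, those that rose included Cxcr6, a receptor of tissue-resident T cells (313, 315 and 266 CPM against 773, 679 and 547 CPM), and Ccrl2, which binds chemerin without signalling (1.28 ± 0.22). The receptors that fell included Cxcr4, the receptor for the bone marrow and stromal chemokine CXCL12, at 64.7, 58.8 and 60.5 CPM against 19.3, 14.4 and 15.2 CPM (-1.91 ± 0.10). Gpr183, an oxysterol receptor of lymphoid follicles, fell (-1.57 ± 0.24), as did Ccr8, found on skin T cells (-2.13 ± 0.34). Cmklr1, the signalling chemerin receptor, had 0 counts in all 3 RA libraries and was at least 10.2-fold lower with RA when set against 3 counts over the group. Cxcr3, a receptor of inflamed tissue, was not called (-0.10 ± 0.10, adjusted p = 0.51), with overlapping groups.

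Of 17 tested integrin genes 10 rose and 3 fell (76.5% called, against 26.7% of all tested genes). Itga1, the collagen-binding α1 chain, was at 18.8, 12 and 12.1 CPM in the controls and 95.5, 82.4 and 42.3 CPM with RA (2.36 ± 0.26, adjusted p = 1.8e-05). Itgax, which encodes CD11c, rose by 1.46 ± 0.20 and Itgad by 2.22 ± 0.21. Itgae, the αE chain that binds E-cadherin, rose by 0.92 ± 0.23 (adjusted p = 0.00831) from 72.3, 109 and 117 to 129, 157 and 277 CPM. The value of Itgae leaned on RA replicate 3, without which it was 0.53, and it was 0.35 without both libraries that stand apart. Cdh1, E-cadherin itself, also rose, from 6.99, 4.52 and 4.79 to 33.1, 28.4 and 10.8 CPM (2.16 ± 0.31, adjusted p = 0.000186).

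Several genes that build ligands for selectins, the rolling receptors of vessel walls and leukocytes, fell. Fut7, the fucosyltransferase that completes selectin ligands, was at 36.2, 33.1 and 31 CPM against 1.5, 1.05 and 0.618 CPM (-4.97 ± 0.15, adjusted p = 8.2e-11). The 3 RA libraries were far below every control. Of the 18 tested genes of selectins and their ligands 9 fell and 3 rose (66.7% called, against 26.7% of all tested genes). Those that fell included B3gnt5, a glycosyltransferase (-1.44 ± 0.14), St3gal1, a sialyltransferase of O-glycans (-0.63 ± 0.06), and Spn, the mucin CD43 (-0.30 ± 0.06). St3gal6, another sialyltransferase, rose (0.96 ± 0.11).

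**Figure D2:**
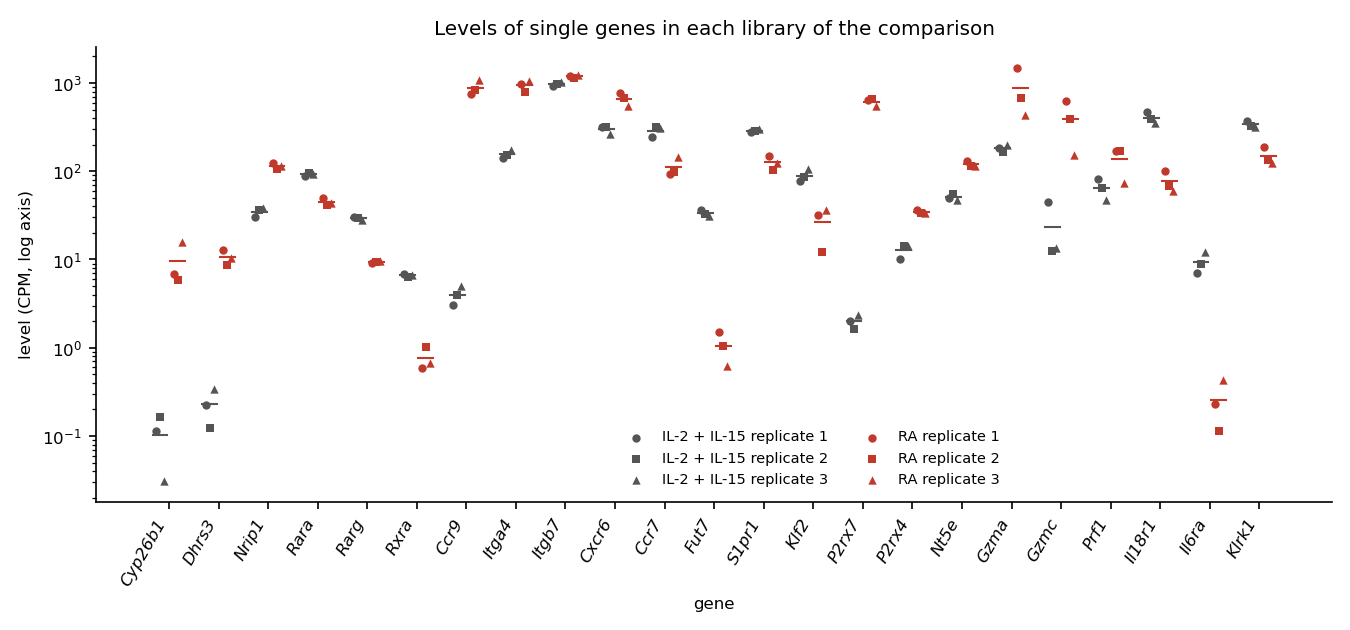
Levels of single genes in each of the 6 libraries (CPM, log axis), grey for control and red for RA, with a marker shape for each replicate and a line at each group mean. Ccr9, P2rx7, Cyp26b1 and Dhrs3 separate by more than 10-fold, while Itgb7 shifts from 924 to 1020 CPM to 1140 to 1220 CPM.

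Genes of recirculation and lymphoid residence fell together: of 23 tested, 14 fell and 4 rose, with a median of -0.39 against -0.001 for all genes. Their called share was 78.3%, against 26.7% of all tested genes. S1pr1, the receptor for exit from tissue into lymph, was at 280, 287 and 299 CPM in the controls and 148, 104 and 125 CPM with RA (adjusted p = 3.9e-06). Klf2, the factor that drives S1pr1, was at 76.8, 85.3 and 105 CPM against 31.8, 12 and 36 CPM (adjusted p = 0.000536), and Ccr7, the lymph node receptor, at 244, 317 and 307 CPM against 91.9, 98.3 and 145 CPM (adjusted p = 1.1e-05). All 3 separated the groups. Ramp1, a co-receptor for the neuropeptide CGRP, fell from 5.11, 5.74 and 8.6 to 0.091, 0.0376 and 0.476 CPM (-5.08 ± 0.42, or -6.62 without RA replicate 3), and Rasgrp2, an activator of Rap1 in integrin signalling, fell by 0.74 ± 0.11. Tcf7, a factor of memory and stem-like T cells, was at 948, 1230 and 1300 CPM against 438, 434 and 867 CPM, with RA replicate 3 nearest to the controls. Its change was -1.0 ± 0.21 with all libraries and -1.53 without both that stand apart. Il7r, the receptor of the survival cytokine IL-7, was not called (0.06 ± 0.08, adjusted p = 0.602).

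Of 37 tested residency genes 18 rose and 4 fell (59.5% called, against 26.7% of all tested genes). Osgin1, an oxidative stress response gene, rose most among them, from 18, 14.2 and 14.7 to 152, 133 and 99.4 CPM (3.04 ± 0.14, adjusted p = 3.7e-09). Zfp683, the transcription factor Hobit, was at 3.76, 4.31 and 5.71 CPM against 26, 26.3 and 29.7 CPM (2.56 ± 0.14, adjusted p = 2.3e-08). Nt5e, the ecto-enzyme CD73, rose by 1.24 ± 0.07 and Cd101, an inhibitory surface protein, by 0.93 ± 0.10. Icos, a costimulatory receptor in the same list, went from 167, 179 and 186 CPM to 55.5, 56.6 and 61.1 CPM (-1.62 ± 0.06, adjusted p = 6.7e-10). Cd69 was at 28.8, 28.7 and 24.9 CPM in the controls and 27.5, 28 and 24.6 CPM with RA, and its groups overlapped. The count of genes that fell in this list dropped to 2 without IL-2 + IL-15 replicate 1, without RA replicate 2 or with only the 6 libraries in the fit.

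Receptors and enzymes of extracellular nucleotides changed on both sides of the ATP pathway. P2rx7, the channel that extracellular ATP opens, was at 2.03, 1.63 and 2.33 CPM in the controls and 633, 659 and 542 CPM with RA (8.24 ± 0.17, adjusted p = 2.2e-12). P2rx4, a related ATP channel whose gene lies next to it, rose from 10.1, 14.1 and 14.2 to 36.6, 33.8 and 33.6 CPM (1.43 ± 0.12). Art2b, a surface enzyme that attaches ADP-ribose to P2X7, rose by 1.60 ± 0.14. Its neighbour Art2a-ps, annotated as a pseudogene, rose by 6.84 ± 0.26, and as close copies the pair may share reads. Of the ecto-enzymes that act on nucleotides, Entpd1 (CD39), which cleaves ATP, was at 30, 27.3 and 28.1 CPM against 109, 104 and 56.1 CPM, Nt5e, which makes adenosine from AMP, rose as given above, and Cd38, which cleaves NAD, rose by 1.27 ± 0.12. Adora3, an adenosine receptor, fell by 3.37 ± 0.26. In all, 11 of 23 tested genes of this list rose and 5 fell, with a median of 0.43, and its 10 untested members include P2rx2, P2rx3 and Adora1. The called share was 69.6%, against 26.7% of all tested genes.

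Most granule genes for killing rose, with the smallest median shift in RA replicate 3. Gzmc, granzyme C, was at 44.4, 12.6 and 13.4 CPM in the controls and 627, 394 and 152 CPM with RA (4.06 ± 0.51, adjusted p = 6.4e-05), or 4.92 without IL-2 + IL-15 replicate 1 and 5.30 without both libraries that stand apart. Gzma, granzyme A, was at 181, 165 and 198 CPM against 1490, 681 and 428 CPM (2.26 ± 0.32), or 1.61 without RA replicate 1. Prf1, perforin, was at 81.6, 63.9 and 47.6 CPM against 170, 171 and 73.8 CPM (1.11 ± 0.25, adjusted p = 0.00536), with RA replicate 3 below the highest control. Gzmb, granzyme B, was at 1650, 1270 and 1290 CPM against 2530, 1980 and 1130 CPM and was not called (0.43 ± 0.23, adjusted p = 0.197). Without RA replicate 3 it was called (0.69, adjusted p = 0.00489). In the same chromosome 14 cluster Gzmd (1.62 ± 0.38), Gzme (1.67 ± 0.47), Gzmf (3.99 ± 0.56) and Gzmg (2.52 ± 0.47, or 3.83 without IL-2 + IL-15 replicate 2) rose, and these close copies may share reads. Gzmn, at no more than 1 count in any of the 6 libraries, was not tested. Tnfsf10, the death ligand TRAIL, rose by 0.91 ± 0.08, Lamp1, a membrane protein of lytic granules, by 0.74 ± 0.06 and Srgn, the proteoglycan that packs granules, by 0.66 ± 0.07. Over the list 14 of 23 tested genes rose and 2 fell, against 18 and 1 without both libraries that stand apart, and 4 fell without RA replicate 1. With all libraries 69.6% of the list was called, against 26.7% of all tested genes.

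Killer lectin receptors changed in both directions. Klrk1, the activating receptor NKG2D, was at 374, 329 and 316 CPM in the controls and 189, 133 and 124 CPM with RA (-1.19 ± 0.12, adjusted p = 1.1e-05). Its neighbours Klrc1 (-1.64 ± 0.18), Klrc2 (-1.73 ± 0.14) and Klrc3 (-1.96 ± 0.20), which encode NKG2 chains and are similar in sequence, also fell, as did Klri2 (-1.99 ± 0.27). Klrg1, an inhibitory receptor of effector cells, rose from 0.977, 0.163 and 0.338 to 5.46, 4.21 and 1.9 CPM (2.97 ± 0.49, or 3.88 without IL-2 + IL-15 replicate 1), and Klra5, a Ly49 gene with close copies, rose by 1.34 ± 0.34. Fcgr3, an Fc receptor, rose from 2.37, 1.55 and 1.66 to 16.5, 9.85 and 6.52 CPM (2.56 ± 0.34), and Tyrobp, the adaptor DAP12, from 1.84, 0.936 and 1.04 to 7.96, 7.11 and 3.47 CPM (2.28 ± 0.33, or 2.92 without both libraries that stand apart). Of 22 tested genes of killer lectin and NK receptors 8 rose and 6 fell (63.6% called, against 26.7% of all tested genes). Without RA replicate 1, 5 rose.

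The marker list of NK cells includes Fcgr3 and Tyrobp, so it is not a measure separate from the genes above. Of its 5 tested members 4 rose (80% called, against 26.7% of all tested genes). Its summed level was 11.5 to 23.3 CPM in the controls and 29 to 80.3 CPM with RA, and Klrb1c made up most of that sum. Klrb1c (NK1.1) was at 16.9, 9.15 and 7.37 CPM against 53, 35.8 and 16.9 CPM (1.67, or 2.44 without both libraries that stand apart), and Ncr1, the defining receptor NKp46, had 0, 0 and 2 counts against 7, 14 and 2 counts. The part of NK cells in the changes of Fcgr3, Tyrobp and the granule genes was not tested, and in bulk RNA fewer cells of a type cannot be told apart from less RNA per cell. Myeloid markers went the other way, from 39.7 to 50.1 CPM in the controls to 12.6 to 26.1 CPM with RA, which follows Itgam (48.9, 38.3 and 41.5 CPM against 25.4, 22.1 and 10.8 CPM), and S100a8, S100a9, Clec9a and Csf3r were at 0 in all 6 libraries. Markers of CD4 T cells (67.7 to 75.9 CPM against 73.5 to 91.3 CPM), γδ T cells (166 to 226 CPM against 191 to 310 CPM) and B cells (314 to 417 CPM against 415 to 640 CPM, with Ms4a1 and Pax5 at 0) had overlapping ranges. The called shares of these lists were 25%, 16.7% and 33.3%, against 26.7% of all tested genes. In each, 1 member rose: Cd4 (0.90), Tcrg-C2 (0.54) and Ighm (0.48). The calls of these 3 genes were each lost when single libraries were left out, for Cd4 any but RA replicate 3, for Tcrg-C2 IL-2 + IL-15 replicate 2 or 3 or RA replicate 1, and for Ighm IL-2 + IL-15 replicate 1 or 2 or RA replicate 3. Markers of erythroid and stromal cells summed to 93.9 to 107 CPM in the controls and 86.6 to 102 CPM with RA, with Hbb-bs, Hbb-bt, Hba-a2 and Col3a1 at 0. Of the 4 tested members of that list 2 rose (50% called, against 26.7% of all tested genes). Epcam, an adhesion protein of epithelial cells, rose from 0.977, 1.1 and 0.89 to 6.1, 8.35 and 5.42 CPM (2.76 ± 0.20). The other was Col1a2 (2.76 ± 0.82). It was no longer called when control replicate 1, control replicate 3 or RA replicate 1 was left out, and was at 4.34 without control replicate 2. The part of these cell types in the results was not tested.

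Secreted cytokines changed in both directions. Ccl5, a chemokine made by effector and memory CD8 T cells, was at 365, 304 and 263 CPM in the controls and 1180, 802 and 777 CPM with RA (1.57 ± 0.21, adjusted p = 9.3e-05). Lta, lymphotoxin, fell from 42.1, 34.2 and 32.2 to 16.5, 14.3 and 22.4 CPM (-1.04 ± 0.14), and Tnf fell by 0.69 ± 0.15, or 0.45 on the log2 scale without IL-2 + IL-15 replicate 1. Both separated the groups. Ifng, interferon γ, was at 29.2, 2.64 and 3.16 CPM against 1.82, 2.14 and 1.43 CPM (-2.68 ± 0.78, adjusted p = 0.0218), a difference set by IL-2 + IL-15 replicate 1, without which it was -0.67 (adjusted p = 0.199), and it was also not called without RA replicate 1 or RA replicate 2 or with only the 6 libraries in the fit. Il4 and Csf2, cytokines of low level here, rose by 3.33 ± 0.54 (3.95 without IL-2 + IL-15 replicate 3) and 1.42 ± 0.24. Of 21 tested cytokine and chemokine genes 6 rose and 7 fell (61.9% called, against 26.7% of all tested genes). Without IL-2 + IL-15 replicate 1, 10 rose.

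Several receptors for inflammatory cytokines fell steeply. Il18r1, a chain of the IL-18 receptor, was at 474, 388 and 350 CPM in the controls and 101, 68.9 and 60.4 CPM with RA (-2.39 ± 0.16, adjusted p = 2.0e-07). Il6ra was at 7.06, 8.99 and 12 CPM against 0.228, 0.113 and 0.428 CPM (-5.23 ± 0.36, adjusted p = 2.9e-07, and -5.95 without both libraries that stand apart), and Il17ra at 298, 317 and 337 CPM against 129, 121 and 142 CPM (-1.28 ± 0.06, adjusted p = 6.8e-09). None of the RA libraries reached a control in these 3 genes. Il1rl1, the IL-33 receptor, fell by 3.12 ± 0.42, and Il2ra, the high-affinity IL-2 receptor chain, by 0.72 ± 0.07. Il4ra rose from 721, 789 and 822 to 1410, 1520 and 1420 CPM (0.90 ± 0.07), and Ifngr1 rose by 0.57 ± 0.06. Of 44 tested cytokine receptor and signalling genes 7 rose and 13 fell (45.5% called, against 26.7% of all tested genes).

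Most inhibitory receptors rose. Lag3, which binds MHC class II, was at 221, 233 and 252 CPM in the controls and 444, 471 and 402 CPM with RA (0.90 ± 0.08, adjusted p = 3.4e-06), and Cd160 at 78.8, 69.2 and 57 CPM against 220, 232 and 157 CPM (1.57 ± 0.15, adjusted p = 5.3e-06). Gp49a, an immunoglobulin-like receptor with a close copy in Lilrb4, was at 60.2, 52.2 and 49.3 CPM against 655, 589 and 533 CPM (3.46 ± 0.11, adjusted p = 9.8e-11). The groups were well apart in each. Cd200r1 rose by 1.39 ± 0.21 and Cd274, the ligand PD-L1, by 0.59 ± 0.09. Cd5, a brake on T cell receptor signals, fell (-0.50 ± 0.07). In all, 10 of 17 tested genes rose and 3 fell (76.5% called, against 26.7% of all tested genes).

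Among costimulatory genes 6 of 26 rose and 11 fell (65.4% called, against 26.7% of all tested genes). Besides Icos, Slamf6 fell from 89.7, 106 and 112 to 27.3, 27.5 and 57.3 CPM (-1.46 ± 0.23), Cd28 by 0.42 ± 0.07 and Cd80 by 1.83 ± 0.31, with -2.44 without RA replicate 1. Tnfrsf4 (OX40) rose from 14.2, 12.9 and 12.9 to 26.2, 27.9 and 25.4 CPM (0.99 ± 0.08), Tnfsf11 (RANKL) by 1.84 ± 0.20 and Cd226, an activating receptor for nectin-like ligands, by 0.69 ± 0.05. The number of genes that fell was 7 without RA replicate 2 or with only the 6 libraries in the fit.

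Within the T cell receptor pathway 12 of 44 tested genes rose and 11 fell (52.3% called, against 26.7% of all tested genes). Rasgrp1, which links the receptor to Ras, rose (0.44 ± 0.04, adjusted p = 6.6e-06), and the kinases Zap70 and Txk rose by 0.40 ± 0.07 and 0.85 ± 0.13. Pag1, an adaptor that holds back signals at the membrane, fell from 84.1, 98 and 114 to 50.5, 45.8 and 56.4 CPM (-0.96 ± 0.10). The kinase gene Prkcq fell by 0.39 ± 0.06 and Cd8b1, the second co-receptor chain, by 0.41 ± 0.07.

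Transcription factors of effector and resident cells changed unevenly. Maf, a factor of cytokine-producing T cells, rose from 2.48, 1.87 and 2.73 to 16.6, 16.8 and 9.42 CPM (2.59 ± 0.22, adjusted p = 1.9e-06). Epas1, which encodes HIF-2α, rose from 16.3, 7.81 and 9.76 to 106, 96.1 and 47.8 CPM (2.89 ± 0.29, adjusted p = 8.0e-06), or by 3.52 without both libraries that stand apart. Rbpj, the DNA-binding partner of Notch, was at 339, 312 and 332 CPM against 511, 538 and 459 CPM (0.62 ± 0.06). The RA libraries were above the controls in all 3. Prdm1 (Blimp-1) rose by 0.81 ± 0.11 and Tbx21 (T-bet) by 0.58 ± 0.12, while Eomes (-0.39 ± 0.21, adjusted p = 0.205) and Runx3 (-0.01 ± 0.07, adjusted p = 0.959) were not called. Irf4, a factor whose level follows receptor signal strength, fell by 0.37 ± 0.04. Jun, a subunit of AP-1, rose from 26.3, 30.8 and 32.1 to 72.2, 71.5 and 68.7 CPM (1.25 ± 0.07, adjusted p = 6.0e-08), while Dusp4, a phosphatase of MAP kinases, fell by 1.83 ± 0.21 and Batf3 by 0.62 ± 0.14. Dtx4, an E3 ligase of the Notch pathway, rose from 15.9, 19.5 and 18.6 to 137, 130 and 129 CPM (2.87 ± 0.07, adjusted p = 5.6e-12), whereas Notch1 fell by 0.41 ± 0.07.

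Genes of cell division fell, nearly all of those of mitosis and most of those of replication. Of 55 tested genes of mitosis and chromosome segregation 54 fell and 0 rose, with a median of -0.73, and of 51 tested genes of DNA replication 38 fell and 0 rose, with a median of -0.42. Over all tested genes 14.3% fell and 12.4% rose. Foxm1, the factor that switches on mitotic genes, was at 102, 88.6 and 91.2 CPM in the controls and 52.3, 45.4 and 34.3 CPM with RA (-1.09 ± 0.12, adjusted p = 1.6e-05). Top2a, the topoisomerase that untangles chromosomes, was at 660, 624 and 635 CPM against 394, 383 and 298 CPM (-0.83 ± 0.09, adjusted p = 1.8e-05), and E2f2, a factor of S phase entry, at 136, 129 and 146 CPM against 63.4, 51.6 and 58.1 CPM (-1.25 ± 0.10, adjusted p = 1.3e-06). RA replicate 3 had the lowest mitotic levels, with a median of -1.07 from the control mean against -0.52 and -0.62 in the other RA libraries. Without both libraries that stand apart 51 mitotic genes and 30 replication genes fell, and 0 and 1 rose.

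The change in division genes differed in size among steps. Rrm2, which makes deoxynucleotides, fell by 1.13 ± 0.15 and Uhrf1, which maintains DNA methylation, by 0.93 ± 0.11, while the replicative helicase gene Mcm7 fell by 0.44 ± 0.05 and the polymerase gene Pold1 by 0.42 ± 0.05. Among D-type cyclins and inhibitors of cyclin-dependent kinases, 8 of 22 fell and 1 rose, Ccnd3 by 0.38 ± 0.06 and Cdkn2c by 0.89 ± 0.17 downward, and Gadd45g, a stress-induced growth arrest gene, rose by 0.94 ± 0.17. The called share of this list was 40.9%, against 26.7% of all tested genes. The number that rose was 5 without RA replicate 3 and 3 with replicate numbers as a block. Myc itself was at 237, 229 and 229 CPM in the controls and 267, 287 and 287 CPM with RA (0.28 ± 0.05, adjusted p = 0.000652), and its antagonists changed in both directions: Mxd1 and Mxi1 rose by 0.55 ± 0.07 and 0.48 ± 0.07, and Mxd3 fell from 19.1, 16.2 and 16.8 to 8.33, 7.82 and 5.99 CPM (-1.23 ± 0.13).

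**Figure D3:**
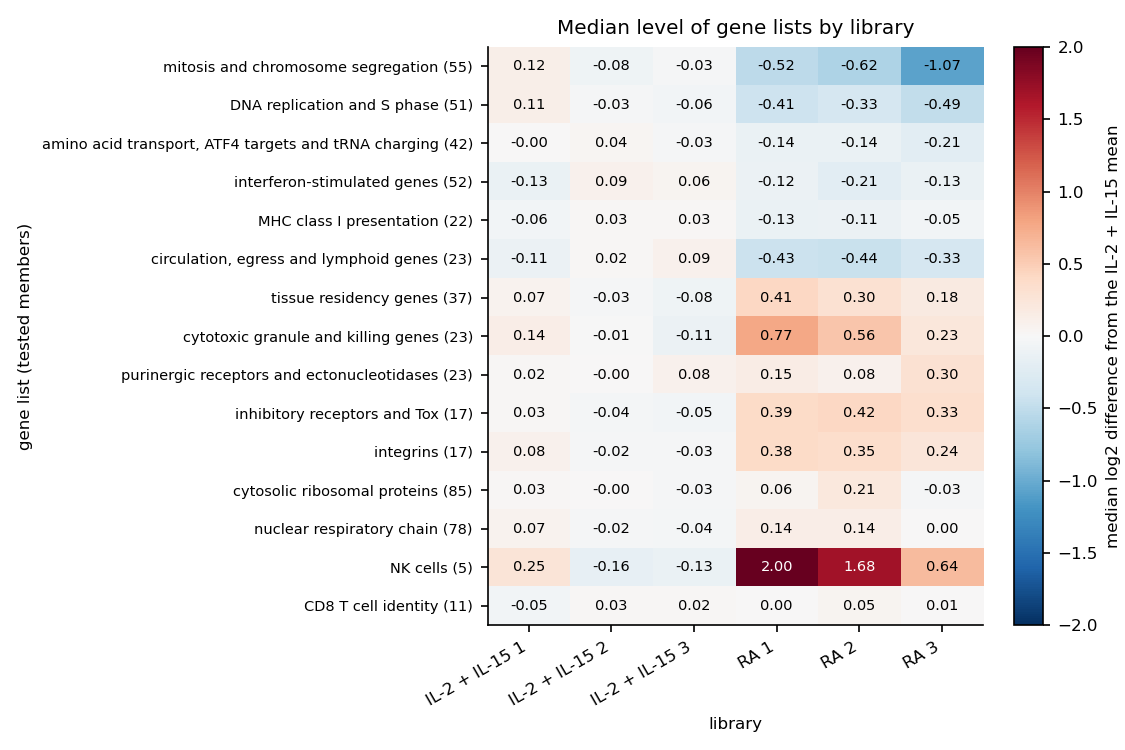
Each cell gives the median, over the tested genes of a list, of the log2 difference of 1 library from the mean of the 3 control libraries, with blue for lower and red for higher. The mitosis list is at -0.52, -0.62 and -1.07 in the RA libraries, and the cytotoxic list at 0.77, 0.56 and 0.23, so RA replicate 3 is the lowest in both.

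Of 42 tested genes of amino acid transport, ATF4 targets and tRNA charging 19 fell and 1 rose, or 2 with replicate numbers as a block. With no block 47.6% of the list was called, against 26.7% of all tested genes. Slc7a5, the main importer of large neutral amino acids, was at 98.3, 107 and 106 CPM in the controls and 71.9, 72 and 63.4 CPM with RA (-0.59 ± 0.06, adjusted p = 1.8e-05), and Trib3, an ATF4 target, at 20.3, 23.8 and 26.4 CPM against 10.2, 10.3 and 10.1 CPM (-1.20 ± 0.12, adjusted p = 1.1e-05). Asns (asparagine synthetase) fell by 0.45 ± 0.09 and Mthfd2 (mitochondrial folate enzyme) by 0.43 ± 0.06. The groups did not overlap in any of the 4. Slc2a3, a glucose transporter, rose by 0.51 ± 0.06, and of 26 glycolysis genes 2 rose and 5 fell, a called share of 26.9% that is close to the 26.7% of all tested genes. Without RA replicate 3, 4 of these rose, and 3 and 2 fell when control replicate 2 or control replicate 3 was left out. Of 44 genes of cholesterol and fatty acid synthesis 3 rose and 6 fell (20.5%, below the share of all genes), with 8 rising without RA replicate 3 and 5 with replicate numbers as a block. The member with the largest change was Elovl7, a fatty acid elongase (-2.90 ± 0.23).

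The counts of respiratory chain and ribosomal genes changed most, and upward, when RA replicate 3 was left out. Of 78 nuclear respiratory chain genes 11 rose and 2 fell, a called share of 16.7% against 26.7% of all genes, and 29 rose without RA replicate 3 (when 2100 of all genes rose, against 1731), against 6, 7, 7 and 4 when control replicate 2, control replicate 3, RA replicate 1 or RA replicate 2 was left out. Of 85 cytosolic ribosomal protein genes 7 rose (8.24%, against 12.4% of all genes), against 27 without that library and 1 to 4 without any other single library, and the summed share of these genes was 9.15%, 8.82% and 8.57% of counts in the controls and 9.08%, 10.1% and 8.72% with RA (two-sided exact permutation test, p = 0.5, where 0.1 is the smallest that 3 against 3 samples allow). Cycs, cytochrome c, rose from 45.7, 45.6 and 43.2 to 73.7, 68 and 60.1 CPM (0.59 ± 0.06, adjusted p = 2.0e-05). Cathepsin genes diverged: Ctss, the protease that trims the MHC class II chaperone, fell from 105, 129 and 123 to 16.6, 17.9 and 28.9 CPM (-2.50 ± 0.18, adjusted p = 4.1e-07), while Ctsb rose by 0.40 ± 0.05. Npc2, which moves cholesterol inside lysosomes, rose by 0.46 ± 0.06 and its partner Npc1 fell by 0.54 ± 0.07.

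Part of the interferon-stimulated genes and of those of antigen presentation by MHC class I fell. Of 52 tested interferon-stimulated genes 17 fell and 2 rose, 11 falling without RA replicate 2. With all libraries 36.5% of the list was called, against 26.7% of all tested genes. Usp18, which shuts off interferon receptor signals, was at 44, 50.5 and 35.4 CPM in the controls and 20.4, 20.7 and 16.7 CPM with RA (-1.16 ± 0.19, adjusted p = 0.000517), and Ifit3 at 6.2, 11 and 9.06 CPM against 4.55, 2.11 and 2.33 CPM (-1.56 ± 0.33, adjusted p = 0.00293). Stat2, part of the interferon transcription complex, fell by 0.54 ± 0.07, and Isg20, an exonuclease, rose by 0.86 ± 0.12. Of 22 MHC class I presentation genes 8 fell and 0 rose (2 with replicate numbers as a block), among them Nlrc5, the transactivator of class I genes, at 800, 893 and 934 CPM against 477, 495 and 706 CPM (-0.65 ± 0.12), and the peptide transporter Tap1 (-0.36 ± 0.07). With no block 36.4% of this list was called, against 26.7% of all tested genes. The number that fell was 5 without IL-2 + IL-15 replicate 3, RA replicate 1 or RA replicate 2. Of the class II genes H2-Ab1 rose by 0.73 ± 0.09, while Cd74, the chaperone of class II, fell by 1.75 ± 0.38.

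Several surface and lipid mediator genes changed in ways not covered above. Ly6c2, a surface protein of effector and memory cells with the close copy Ly6c1, fell from 1720, 1570 and 1470 to 866, 709 and 594 CPM (-1.13 ± 0.16, adjusted p = 0.000163), and Ms4a4c from 201, 242 and 148 to 49.9, 57.3 and 69.1 CPM (-1.74 ± 0.16). Of 18 prostaglandin and leukotriene genes 7 rose and 3 fell (55.6% called, against 26.7% of all tested genes). The prostacyclin receptor gene Ptgir rose from 1.95, 2.36 and 3.59 to 11.2, 11.4 and 9.18 CPM (1.99 ± 0.29), Ptger2, a receptor for prostaglandin E2, by 0.78 ± 0.10, and the thromboxane receptor gene Tbxa2r fell by 1.14 ± 0.11. Of 31 genes of TGFb receptors, SMADs and feedback 10 rose and 5 fell (48.4% called, against 26.7% of all tested genes). Smad3, which carries the TGFb signal, rose by 0.50 ± 0.05 and Nedd9 by 1.14 ± 0.08, while Pmepa1, a feedback inhibitor, fell by 0.51 ± 0.08. Dnmt3a, a DNA methyltransferase, rose from 78.5, 78.5 and 80.4 to 135, 130 and 124 CPM (0.71 ± 0.06, adjusted p = 1.4e-06), and Ezh2, the Polycomb methyltransferase, fell from 104, 97 and 100 to 70.4, 74.8 and 71.5 CPM (-0.47 ± 0.05, adjusted p = 8.0e-06). Of the survival genes Bcl2 and Birc3 rose by 0.31 ± 0.07 and 0.68 ± 0.06, as did the death gene Bcl2l11 (0.54 ± 0.12), and Bbc3, a p53 target, fell by 0.60 ± 0.09.

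**Figure D4:**
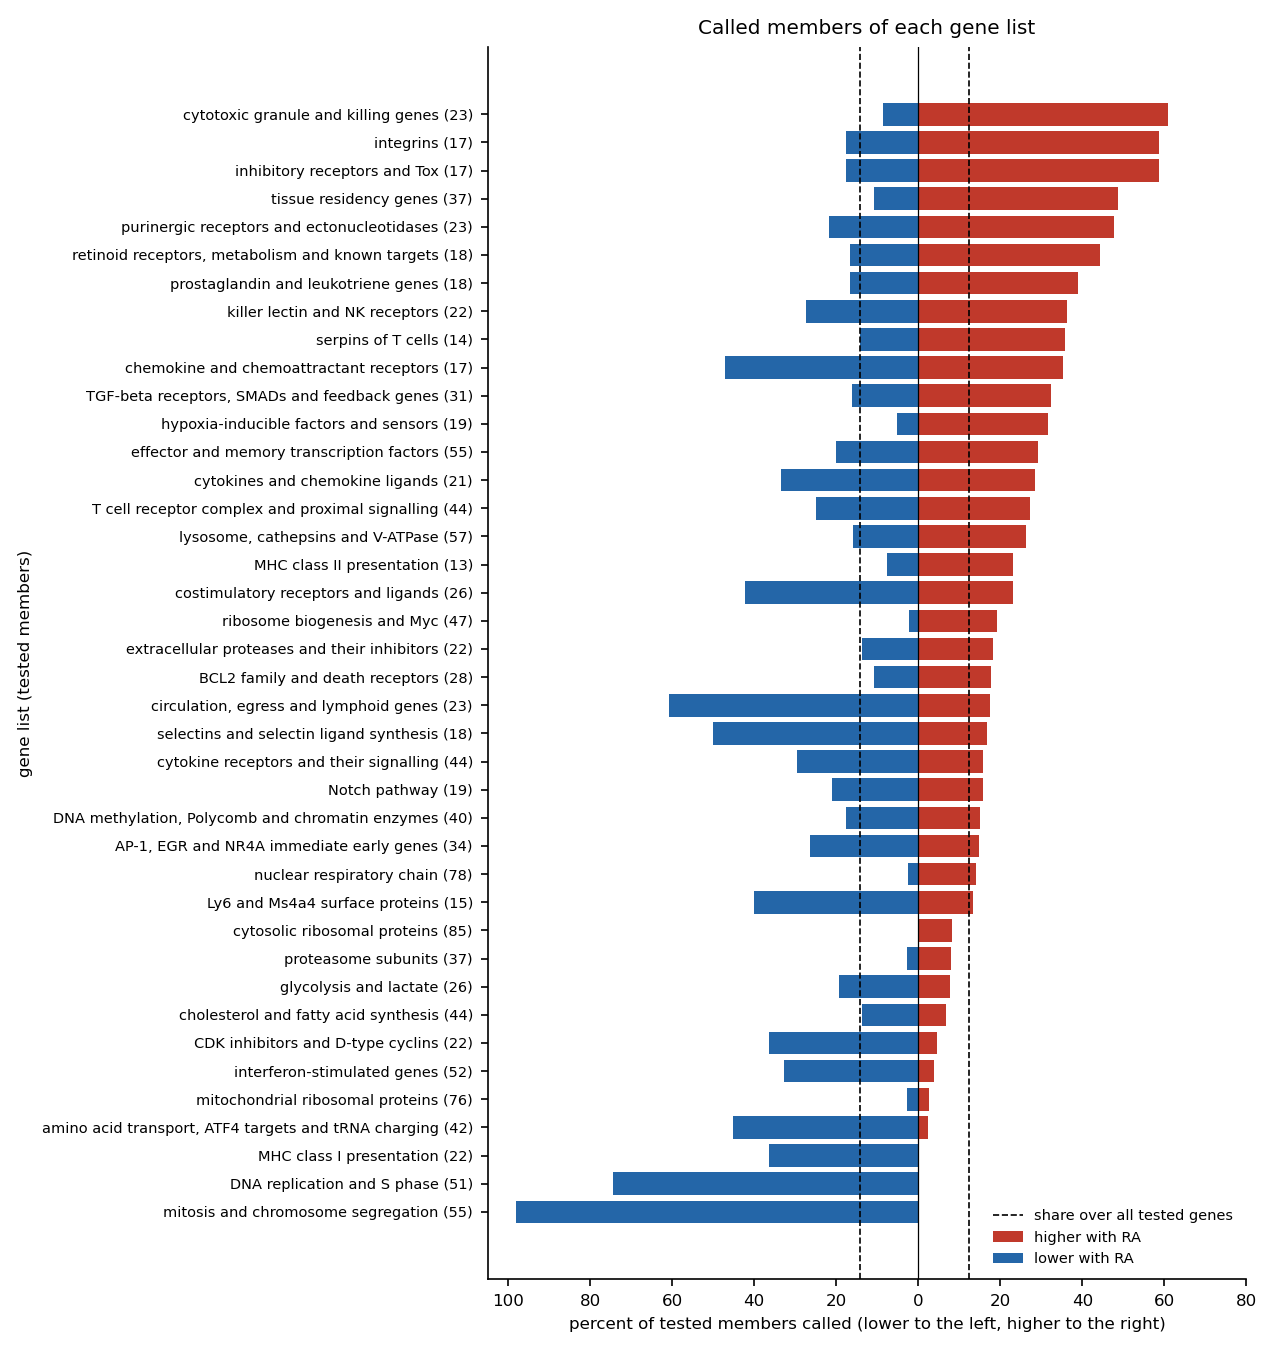
Bars give the percent of each list's tested members that rose (red, to the right) or fell (blue, to the left), with the number tested in brackets and dashed lines at the shares over all tested genes, 12.4% and 14.3%. The mitosis list (54 of 55 lower) is at the bottom, and the cytotoxic list (14 of 23 higher) at the top.

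Among the largest changes under the naming rule were genes outside the groups described so far. Sorcs2, a sorting receptor best known in neurons, was at 0.15, 0.285 and 0.276 CPM in the controls and 112, 91.4 and 67.8 CPM with RA (8.54 ± 0.26, adjusted p = 8.1e-11). Mmp9, a secreted gelatinase, was at 2.67, 1.18 and 1.41 CPM against 227, 161 and 87.9 CPM (6.5 ± 0.38, adjusted p = 7.0e-08, and 7.21 without both libraries that stand apart), and Gja5, connexin 40, at 2.44, 0.895 and 1.6 CPM against 75, 31.9 and 10.4 CPM (4.56 ± 0.62, adjusted p = 0.000115). The RA libraries of Gja5 were far apart, and its change was 3.70 without RA replicate 1 and 5.36 without both libraries that stand apart.

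The 2 receptors of vasoactive intestinal peptide, a neuropeptide abundant in the gut, moved in opposite directions. Vipr1 was at 12.6, 18 and 22.4 CPM in the controls and 0.364, 0.903 and 1.09 CPM with RA (-4.48 ± 0.32, adjusted p = 4.3e-07). Vipr2 was at 0.939, 0.285 and 0.645 CPM in the controls and 17.1, 9.97 and 9.94 CPM with RA (4.27 ± 0.32, adjusted p = 7.9e-07). The groups did not overlap in either gene.

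Further large decreases were those of Endou, an endoribonuclease (20.4, 10.9 and 16.3 CPM against 0.137, 0.113 and 0.143 CPM, -6.89 ± 0.33), Stac2, an adaptor of calcium channels (32.4, 30.4 and 31.8 CPM against 0.637, 0.714 and 0.381 CPM, -5.73 ± 0.13), and Sema4a, a semaphorin that acts on other T cells (432, 404 and 381 CPM against 43.5, 35.5 and 24.3 CPM, -3.56 ± 0.18). These 3 had adjusted p of at most 1.6e-08 and separate groups. Mpp2 (-3.81 ± 0.11), Fam129b (-3.79 ± 0.19), Dapl1 (-3.71 ± 0.30), Cd163l1 (-3.37 ± 0.32), Clec12a (-2.88 ± 0.22) and S100a4 (-2.69 ± 0.32) fell as well. Dapl1 was at -4.31 without both libraries that stand apart.

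Neighbours of the strongest increases often rose too, a look at gene position that was chosen after the values were seen. Within 100000 bases of the 12 largest increases lie 45 other tested genes, of which 23 rose and 0 fell (51.1% higher, against 12.4% of all tested genes), and of the 41 that share no bases with them 20 rose. Around the 12 largest decreases 16 of 56 neighbours fell (28.6%, against 14.3%) and 6 rose. On chromosome 9 (GRCm38) Lztfl1, a regulator of cilia proteins at 123694416 to 123717697, rose from 15, 17.4 and 14.7 to 556, 472 and 547 CPM (5.07 ± 0.13, adjusted p = 8.2e-12). Its span in GENCODE falls inside that of Ccr9 (123678439 to 123784330), and Cxcr6 (1.16 ± 0.11), at 123806475 to 123811760, lies 22145 bases beyond Ccr9. By the RefSeq start of Ccr9, just after the printed promoter at 123766961 to 123767210, Lztfl1 lies outside Ccr9. Fyco1, whose span covers Cxcr6, was not called (-0.17 ± 0.12, adjusted p = 0.324).

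Other such runs were seen around the ATP channels and the decreases. Beside P2rx7 and P2rx4, Ift81 was at 0.563, 0.773 and 1.17 CPM in the controls and 3.82, 4.25 and 3.57 CPM with RA (2.19 ± 0.24), and Camkk2, a calcium-dependent kinase, rose by 0.37 ± 0.06. Next to Hic1, Smg6 rose by 0.74 ± 0.05 and Rtn4rl1 by 1.32 ± 0.12. Lmna, lamin A/C, 18965 bases from Sema4a, fell from 3.04, 3.58 and 2.95 to 0.273, 0.451 and 0.19 CPM (-3.32 ± 0.28), and Rapgef3, 13431 bases from Endou, fell by 4.56 ± 0.37. Where exons overlap, reads of neighbours may not have been told apart.

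The same RA effect was measured in cells that also received TGFb, from the remaining 6 libraries. These entered the same fit, and so the estimate of spread behind the tests above. The difference of the 2 effects was tested gene by gene. It was called for 2702 genes (19.3% of those tested), and for 1277 of the 3740 genes that RA changed (34.1%). Of the 1731 genes that rose with RA alone, 944 also rose with RA in the presence of TGFb, 117 fell there and 670 were not called. Of the 2009 that fell, 1414 also fell, 63 rose and 532 were not called. Among genes called for the difference, those that rose mostly had a smaller or opposite effect with TGFb (376 of 485), and those that fell mostly had a larger one (528 of 792). The number called for the difference was 4107 without RA replicate 3.

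P2rx7, Ccr9 and Itga4 rose with RA in the presence of TGFb too, whereas Itgb7 and Gpr15 fell there. P2rx7 rose by 7.41 with TGFb (difference -0.82 ± 0.29, not called, adjusted p = 0.0637), and Ccr9 by 6.11 (difference -1.66, adjusted p = 0.000229). Itga4 rose by 1.32 with TGFb against 2.58 without it (adjusted p of the difference 0.000362), and Itgb7 fell by 0.33 on the log2 scale with TGFb and rose by 0.29 without it (adjusted p = 0.00012). Gpr15 fell by 7.35 on the log2 scale with TGFb and by 2.18 without it (adjusted p of the difference 0.000117). Its mean went from 122 to 0.74 CPM with TGFb and from 1.57 to 0.345 CPM without it. The levels with RA were thus low in both settings, and the starting levels were far apart. Of the division genes Foxm1 fell by 2.90 on the log2 scale with TGFb and by 1.09 without it, and S1pr1 by 3.47 and 1.2, both differences called.

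In some genes the 2 effects differed in sign. Zfp683 rose by 2.56 without TGFb and was at -0.53 with it, which was not called (difference -3.09, adjusted p = 3.9e-06), and Epas1 rose by 2.89 and was at -0.98, also not called (difference -3.87, adjusted p = 0.000671). Usp18 fell by 1.16 without TGFb and had 1.16 with it (difference 2.32, adjusted p = 6.4e-05). Ccl5 rose by 1.57 without and 4.80 with TGFb (difference 3.23, adjusted p = 8.7e-06). In Ccl5 both effects were upward.

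**Figure D5:**
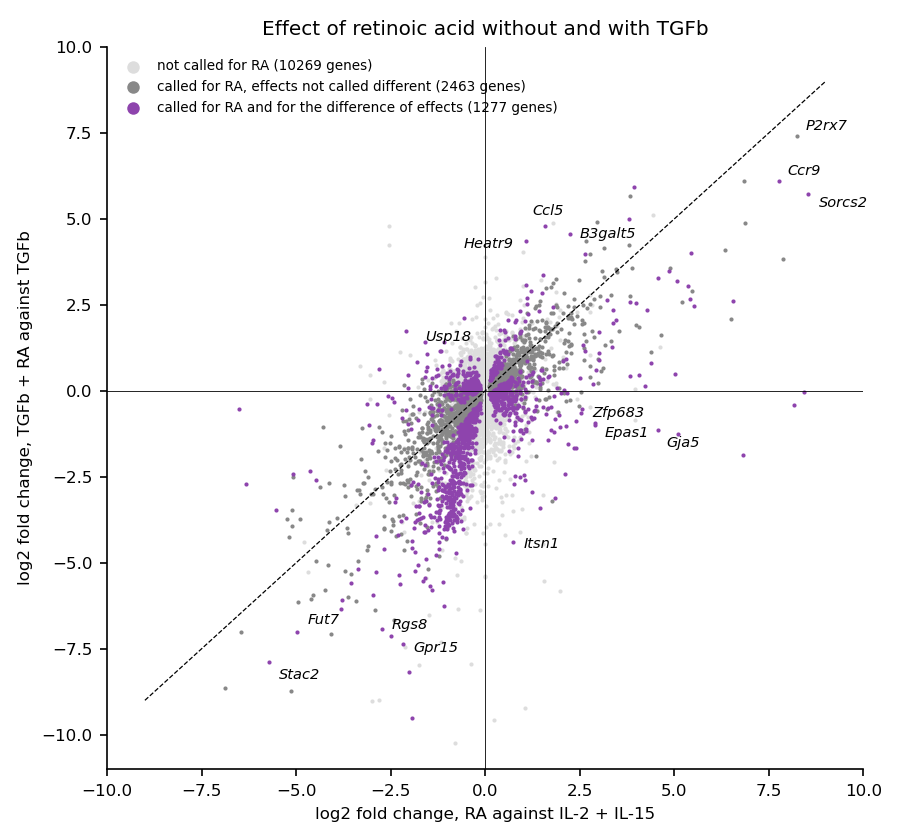
Each point is a tested gene, with the log2 fold change of RA without TGFb on the horizontal axis and with TGFb on the vertical axis, purple where RA changed the gene and the 2 effects were called different (1277 genes), and dark grey where RA changed it but the difference was not called (2463 genes). P2rx7, at 8.24 and 7.41, lies near the dashed line of equal effects, Gja5 and Zfp683 lie below 0 on the vertical axis, and Ccl5 lies above the line.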

How the data were processed

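Bulk mRNA of 12 cultures (4 groups of 3) was sequenced with a stranded kit, per the labels' protocols. The deposited values are raw read counts per gene for 46078 genes. STAR, featureCounts and GRCm38 are named in the submitters' processing notes, and versions, strand setting and the treatment of reads matching several places are not given in the sources used here.

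Genes were kept by filterByExpr (minimum count 10), which left 14009. TMM scaling and edgeR's quasi-likelihood test (edgeR 4.0.16, limma 3.58.1, R 4.3.3) were fitted on all 12 libraries with 8 residual degrees of freedom and Benjamini-Hochberg adjustment at 0.05. SE is the log2 fold change divided by the square root of F. The difference of the RA effects with and without TGFb was a contrast in the same fit. Scripts were tested on simulated data.

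Alternatives were DESeq2 1.42.0 size factors and Wald test, no filter, a 1.5-fold threshold (glmTreat), only the 6 libraries, each library left out, a replicate block and, chosen after seeing the data, both libraries that stand apart left out. Replicate numbers come from the labels. Deviations of same-numbered control and RA libraries from their group means correlated at 0.34, 0.13 and 0.27. The labels do not say that a number marks 1 animal, so the reported test did not pair the samples. Pairing by number entered only as the replicate block.

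Genes named are the 12 highest and 12 lowest changes among called genes of at least 5 CPM with separate groups, up to 8 members of each gene list by p and 4 by size, a panel, and 6 genes at each end of the difference between RA effects, and 1 of them is not reported here. Members and lists were chosen with earlier results of these data known. Tgm2, Fyco1, Ift81, Camkk2, Smg6, Rtn4rl1, Lmna, Rapgef3, Klra5, Gzmd, Gzme and Ncr1 were chosen after their values were seen. Intervals and the limit of 3 counts for a group at 0 cover counting error only. Exon overlaps come from GENCODE and promoters from RefSeq.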

Additional observations from a re-analysis of the deposited data

Results flagged for a closer look

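The RA effects with and without TGFb differed for 2702 genes by edgeR's quasi-likelihood test of the difference. Among genes that RA alone changed, the effect with TGFb was higher than without it by 3.26 on the log2 scale for Heatr9, 3.23 for Ccl5, 2.34 for B3galt5, 2.32 for Usp18, 2.13 for Ifit3 and 2.09 for Tlr7, an endosomal receptor of single-stranded RNA. The difference was -5.71 for Gja5, -5.16 for Gpr15, -5.14 for Itsn1, -4.88 for Agap1, -4.20 for Rgs8, a regulator of G protein signalling, and -3.95 for Aunip. The RA change of Itsn1 and of Agap1 without TGFb lost its call under at least 1 alternative.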

How the results depend on the processing

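The counts of genes called in either direction, higher, lower and at least 2-fold changed stayed within 1.5 times of those reported under every alternative except the 1.5-fold threshold, which left 637, 255, 382 and 577, and 586 genes for the difference between RA effects. Leaving out 1 library gave 2896 to 4522 called genes, 1300 to 2100 higher, 1583 to 2422 lower, 780 to 975 changed at least 2-fold and 2045 to 4107 for the difference, with 4107 reached without RA replicate 3. Without both libraries that stand apart the difference was called for 4670 genes, and the cause was not tested.

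With the replicate block 4021 genes were called (1867 higher, 2154 lower), and 3072 for the difference. Among the genes named by the rule the block ended the call of H2-K1 (adjusted p = 0.0652) and Rpl36 (adjusted p = 0.0537) in edgeR's quasi-likelihood test, and no other.

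Of 346 called genes under the naming rule, 283 kept their call under every alternative except the 1.5-fold threshold. The genes that changed sign were not called, and with 1 library left out they ranged from -0.02 to 0.02 (Rxrb), -0.11 to 0.02 (Cd69) and -0.07 to 0.06 (Runx3): Rxrb (0.00 with DESeq2 size factors, DESeq2's Wald test, only the 6 libraries and without RA replicate 3; 0.01 without IL-2 + IL-15 replicate 1 and without both; 0.02 without IL-2 + IL-15 replicate 2), Cd69 (0.01 without IL-2 + IL-15 replicate 1, 0.02 without RA replicate 3, 0.06 without both), Eomes (0.02 without both) and Runx3 (0.00 with only the 6 libraries, and 0.01, 0.06, 0.03, 0.03 and 0.04 without IL-2 + IL-15 replicate 1 or 3, RA replicate 2 or 3, or both). Levels near the filter rest on few counts, and 3 libraries a group limit the precision.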
